A study of Arabidopsis thaliana with 48 samples.

Results

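The genes described here encode the auxin perception machinery of Arabidopsis thaliana: 29 Aux/IAA repressors, 15 auxin response factors (ARFs) and the 4 receptors TIR1, AFB1, AFB2 and AFB3. They were chosen by locus code, and all 48 loci were found among the 33715 entries of the deposited count table. A filter on low counts kept 47 of them among 20995 entries tested. IAA15, with 2 reads over all libraries, was the member left out.

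Auxin acts as a glue between a receptor and a repressor. TIR1 and the AFB proteins are F-box subunits of a ubiquitin ligase, and auxin fills a pocket in the receptor that then holds a short peptide of the Aux/IAA protein, the degron, so that the repressor is ubiquitinated and destroyed. ARFs bind auxin response elements in DNA and are held silent by Aux/IAA proteins, which recruit TOPLESS corepressors. Many Aux/IAA genes are themselves ARF targets, so auxin raises the mRNA of its own repressors. In roots this module sets gravitropism, root cap identity, vascular patterning, lateral root initiation and the place where cells leave the meristem. Brassinosteroids, steroid hormones perceived by the receptor kinase BRI1, share growth genes with auxin.

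Each library holds mRNA bound to FLAG-tagged ribosomes that were immunopurified from 6-day-old roots grown in continuous light. In Col-0 the tag was driven by 35S (whole root), pBRN2 (root cap), pGL2 (non-hair epidermis), pSCR (endodermis) or pSHR (stele). The other 3 lines are in bri1-116, a mutant lacking functional BRI1, with BRI1 returned from pGL2 or pSCR; they are written pGL2(pGL2BRI1), pGL2(pSCRBRI1) and pSCR(pSCRBRI1), with the tag promoter first. Brassinolide (BL), a highly active brassinosteroid, was given to the roots at 100 nM for 0, 3 or 8 h, which gives 24 groups of 2 libraries, 48 in all. No libraries left without BL for 3 or 8 h were analysed here, so the effect of BL cannot be told apart from that of elapsed time and handling. A promoter defines a set of cells, and in pooled roots fewer cells of a type and less RNA per cell cannot be told apart.

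The libraries held 20556381 to 37685541 counts. Values are given as CPM, counts scaled to 1000000 per library after TMM correction, replicate 1 before replicate 2. Differences are log2 changes with their standard error from the edgeR quasi-likelihood test, with p-values adjusted over all 20995 entries by the Benjamini-Hochberg (BH) method and a threshold of 0.05. The p-values measure the spread between the 2 libraries of a group, called biological repetitions by the series, pooled over all groups. Markers of each tissue were found in the matching Col-0 lines, with these exceptions in the other lines. The libraries labelled pGL2(pSCRBRI1) held endodermis markers at 64 to 102% of their pSCR level at 0 h and epidermis markers at 2.12 to 3.23% of their pGL2 level, against their label. In pGL2(pGL2BRI1), endodermis markers were at 25.9% of the pSCR level in replicate 2 at 0 h, 13.5% in replicate 1 at 3 h and 33% in replicate 2 at 8 h, against 1.42 to 2.54% in the other libraries of that line. BRI1 mRNA was at 36 to 52.7 CPM in the pGL2(pGL2BRI1) libraries, against 19.7 to 36.1 in pGL2, and at 17.7 to 28.4 in pSCR(pSCRBRI1), against 7.53 to 26.1 in pSCR. The reads do not separate the transgene from the mutant transcript. A note in the labels says that 21 libraries were read to 51 bases and trimmed by the last base. It covers every library of pSCR and of the libraries labelled pGL2(pSCRBRI1), none of 35S, pBRN2 and pSHR, and 1 library of each pair in the remaining lines, so that in pSCR against 35S, pBRN2 or pSHR the note and the tissue cannot be told apart.

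The degron is the part of an Aux/IAA protein that the receptor holds. A search of the coding sequences for its core, the in-frame bases GGNTGGCCNCCNGTN, found it in full in 17 of the 29 genes. In 6 others, IAA8, IAA10, IAA11, IAA12, IAA13 and IAA27, the first 4 codons were found and the last differed. In the remaining 6, IAA20, IAA30, IAA31, IAA32, IAA33 and IAA34, neither form was found, which says only that these letters are not in their coding sequences. The following stretches, from RefSeq (TAIR10.1), are shown because the genes with and without this core are set apart in the results, and because they let the repressors that led each tissue or the BL response be compared. Capitals mark the core, and all stretches read 5′ to 3′ along the gene. They come from chr4:8361436-8361468 (IAA1, plus strand), chr1:1129016-1129048 (IAA3, minus), chr1:19673320-19673352 (IAA6, minus), chr1:1136938-1136970 (IAA17, plus), chr3:5264307-5264339 (IAA19, plus), chr4:14143003-14143032 (IAA11, plus) and chr1:1241058-1241087 (IAA12, plus).
IAA1: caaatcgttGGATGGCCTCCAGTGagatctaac
IAA3: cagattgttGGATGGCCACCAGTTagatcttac
IAA6: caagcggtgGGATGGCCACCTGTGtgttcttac
IAA17: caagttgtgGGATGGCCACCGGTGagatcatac
IAA19: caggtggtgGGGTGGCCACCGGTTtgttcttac
IAA11: caagttgtgGGATGGCCACCAataaggact
IAA12: caagtggtaGGATGGCCACCAattgggtta

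MicroRNAs sort the ARFs and receptors into groups. Each microRNA was laid without gaps along the annotated spliced transcripts of the 48 members, counting a G:U pair as a mismatch. The sites of the members named here all lay in coding sequence. The best sites of ath-miR160a-5p were in ARF10, ARF16 and ARF17 with 1 to 3 mismatches, against at least 8 in the other 45 members. Those of ath-miR167a-5p were in ARF6 and ARF8, with 4 and 3 mismatches against at least 7 elsewhere, and those of ath-miR393a-5p were in the 4 receptors, with 2 to 4 against at least 6 elsewhere. The mature sequences (chr2:16340282-16340302, chr3:8108090-8108110 and chr2:16652111-16652132, plus strands, RefSeq, TAIR10.1) have their seed, bases 2 to 8, in capitals. In the sites, shown for the members that differed most between tissues or after BL, capitals mark bases complementary to the microRNA: chr2:12115741-12115761 (ARF10, plus), chr4:14704141-14704161 (ARF16, minus), chr1:10686478-10686498 (ARF6, minus), chr3:23273727-23273748 (TIR1, minus) and chr4:1405341-1405362 (AFB1, minus).
ath-miR160a-5p: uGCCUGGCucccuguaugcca
ARF10 site: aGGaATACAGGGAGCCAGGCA
ARF16 site: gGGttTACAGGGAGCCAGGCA
ath-miR167a-5p: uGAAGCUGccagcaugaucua
ARF6 site: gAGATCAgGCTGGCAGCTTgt
ath-miR393a-5p: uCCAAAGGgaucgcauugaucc
TIR1 site: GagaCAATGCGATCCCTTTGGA
AFB1 site: GagaCcATGCGATCCCTTTGGA

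Before BL, the members differed in the tissue where they were highest. Among the 4 tissue fractions, 20 of the 47 members were highest in the stele, 12 in the root cap, 8 in the epidermis and 7 in the endodermis. These are 42.6, 25.5, 17 and 14.9% of the members, where the shares of all entries were 32.3, 23.5, 25.8 and 18.4%. In 14, 8, 4 and 0 members the highest fraction passed the test over each of the other 3, or 29.8, 17, 8.51 and 0%, against 11.3, 9.56, 11.6 and 6.05% of all entries. By family, 16 of the 28 Aux/IAA genes tested were highest in the stele, 9 in the root cap, 2 in the endodermis and 1 in the epidermis. Of the receptors, AFB1, AFB2 and AFB3 were highest in the epidermis and TIR1 in the endodermis. Of the 47 members, 31 differed between root cap and epidermis, 20 of them higher in the root cap and 11 lower (48.7% of all entries passed, 24.7% and 24%). Between root cap and endodermis 19 were higher in the root cap and 13 lower (54.4% passed, 28.7% and 25.8%), and between root cap and stele 14 were higher in the root cap and 22 lower (58% passed, 28.4% and 29.6%). The epidermis had 16 members above and 13 below the endodermis (45.9% passed, 24.7% and 21.2%), and 13 above and 26 below the stele (63.4% passed, 30.9% and 32.5%). Shares of the members near these shares of all entries are no property of the members. The root cap libraries held stele markers at 7.52 and 10.7% of their pSHR level, against 2.03 and 2% in the epidermis and 3.79 and 3.01% in the endodermis. Of 9 stele markers, 8 were higher and 1 lower in the root cap than in the epidermis. Against the endodermis 8 were higher and 0 lower. The part of this stele signal in the root cap counts was not tested. Every pair of fractions passed the test in 10 members, at least 3 of the 6 pairs in 43, and no pair in IAA34, ARF6 and ARF17. Of all entries 4.11% passed in every pair, 69.6% in at least 3 and 12% in none, against 21.3, 91.5 and 6.38% of the members.

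**Figure D1:**
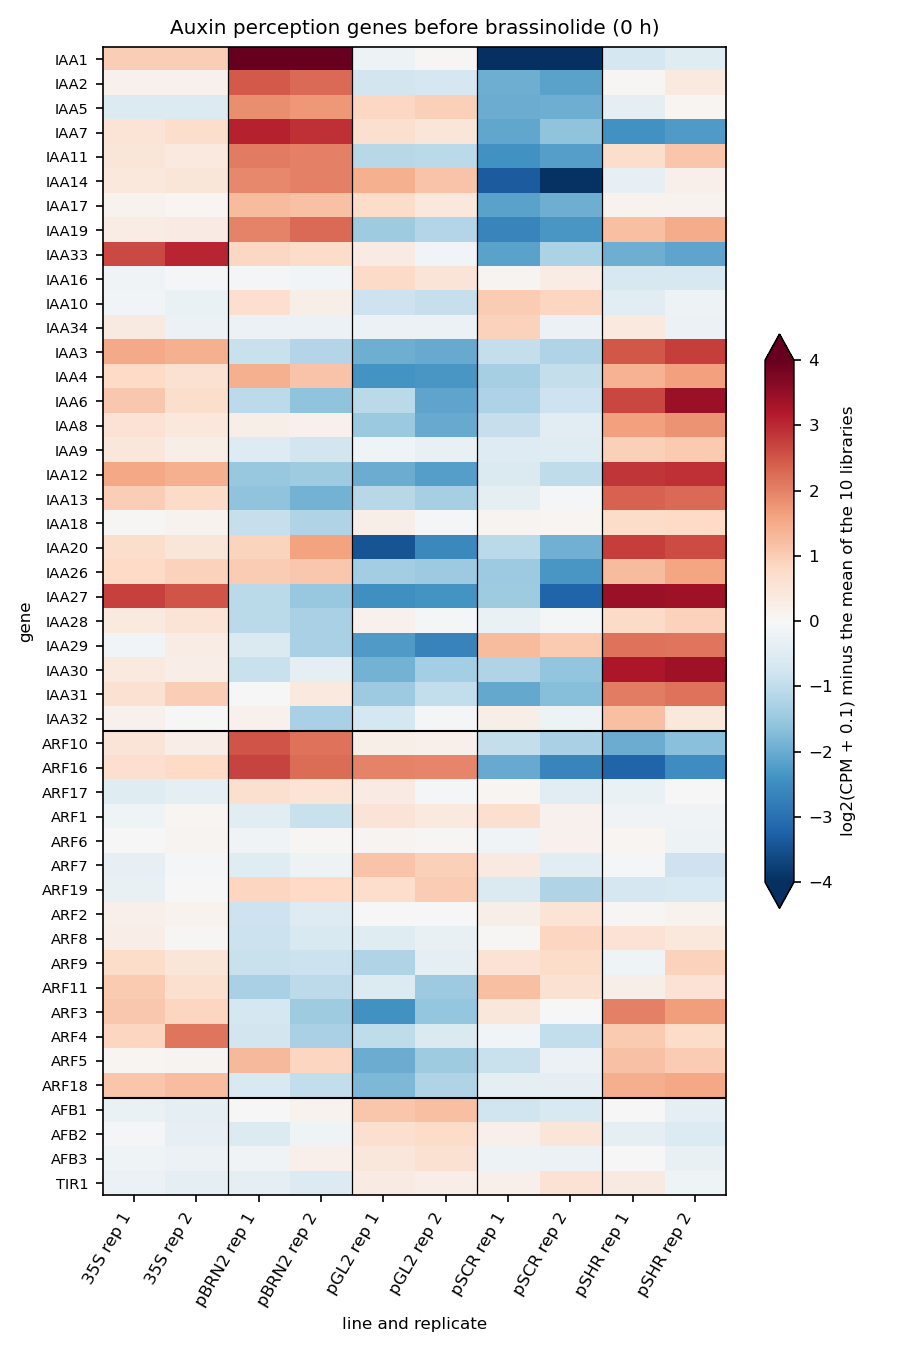
Level of the 47 tested members (rows) in the 10 libraries at 0 h (columns), as log2(CPM + 0.1) minus the mean of the row. The stele columns are high for IAA3, IAA12, IAA13, IAA20, IAA27 and IAA30, and the root cap columns for IAA1, IAA2, IAA7, ARF10 and ARF16. The epidermis columns are high for the receptors AFB1, AFB2 and AFB3.

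Compared with the whole root, 14 members were higher and 17 lower in the root cap fraction, of 47 tested (41% of all entries passed, 18.1% higher and 22.9% lower). The median log2 difference was -0.159 over the members and -0.14 over all entries. The higher members were 9 Aux/IAA genes (IAA1, IAA2, IAA5, IAA7, IAA10, IAA11, IAA14, IAA17 and IAA19) and 5 ARFs (ARF5, ARF10, ARF16, ARF17 and ARF19). The lower ones were 9 other Aux/IAA genes and 8 ARFs: ARF1, ARF2, ARF3, ARF4, ARF8, ARF9, ARF11 and ARF18. No receptor passed.

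IAA1 (AT4G14560, chr4:8361058-8361986), an early auxin-induced repressor, was at 369 and 316 CPM in the root cap, 39.5 and 39.9 in the whole root, 17.5 and 20.9 in the epidermis, 12.2 and 14.1 in the stele, and 1.09 and 0.654 in the endodermis. No fraction overlapped the root cap, and the mean there was 393 times that of the endodermis. Against the whole root the log2 difference was 3.11 ± 0.40 in the root cap (edgeR adjusted p = 6.76e-07) and -5.49 ± 0.49 in the endodermis (adjusted p = 2.97e-10). IAA7, the AXR2 repressor of root gravitropism, was at 1134 and 1014 CPM in the root cap, 210 and 189 in the epidermis, 31.7 and 43.9 in the endodermis and 25 and 27.6 in the stele, again with the root cap apart. Its difference from the whole root, at 196 and 217 CPM, was 2.38 ± 0.30 (edgeR adjusted p = 4.54e-07). IAA2 was at 485 and 428 CPM in the root cap, against 101 and 99.4 in the whole root.

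The miR160 targets ARF10 and ARF16 restrain stem cell activity in the root tip and are needed for root cap formation. ARF16 was at 66.9 and 48.4 CPM in the root cap, 40.8 and 40.1 in the epidermis, 16.2 and 17.6 in the whole root, 2.43 and 1.54 in the endodermis and 1.02 and 1.72 in the stele. The outer fractions were high and the inner ones low, without overlap between them. ARF10 was at 49.9 and 38.8 CPM in the root cap, 10.2 and 9.79 in the epidermis, 4.41 and 3.46 in the endodermis and 2.1 and 2.62 in the stele, and all 6 pairs of fractions passed. In the root cap against the whole root, ARF10, ARF16 and ARF17 differed by 1.98 ± 0.25, 1.77 ± 0.27 and 1.06 ± 0.40 (edgeR adjusted p = 3.4e-07, 5.06e-06 and 0.0313). ARF17, the third target, was low throughout, at 3.36 and 3.09 CPM in the root cap and 1.46 and 1.63 in the whole root. All 3 carry the site printed above or its equivalent, and the level of the microRNA itself was not measured by these libraries.

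In the stele fraction 14 members were higher and 6 lower than in the whole root (26.6% of all entries passed, 7.73% higher and 18.9% lower). The median over the members was 0.322, against 0.0264 over all entries. Of the higher members 12 were Aux/IAA genes, and the other 2 were ARF3 (ETT), a regulator of organ polarity, and ARF5 (MONOPTEROS), the activator that sets up the vascular strand and the embryonic root. The members lower in the stele were IAA1, IAA7, IAA16, IAA33, ARF10 and ARF16.

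IAA12 (BODENLOS), the partner of ARF5 in the embryo, was at 131 and 139 CPM in the stele, 53.3 and 48.2 in the whole root, 12 and 8.82 in the endodermis, 6.29 and 6.63 in the root cap and 4.54 and 3.85 in the epidermis. The stele libraries stood above all others, by 1.41 ± 0.19 over the whole root (edgeR adjusted p = 5.56e-07), and all 6 pairs of fractions passed. IAA13, its close relative, was at 258 and 242 CPM in the stele against 98.5 and 84.9 in the whole root, a difference of 1.45 ± 0.21 (edgeR adjusted p = 1.38e-06). IAA3 (SHY2), which moderates cell division at the edge of the meristem, was at 153 and 189 CPM in the stele and 79 and 73.7 in the whole root, against 6.8 to 14.9 in the 6 libraries of the other fractions. IAA3 overlaps a gene on the opposite strand. IAA27, at 133 and 127 CPM in the stele, lay between 1.21 and 5.75 in those 6 libraries.

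Of the 6 Aux/IAA genes without the degron core, IAA20, IAA30, IAA31 and IAA32 had their highest level in the stele, against 16 of 28 over all Aux/IAA genes tested. In IAA20, IAA30 and IAA31 the stele passed over each other fraction. IAA30 was at 9.33 and 10.4 CPM in the stele, 1.2 and 1.1 in the whole root and 0.172 to 0.683 in the other fractions, with a difference of -4.14 ± 0.52 for the root cap minus the stele (edgeR adjusted p = 7.68e-08). IAA20 was at 7.26 and 6.53 CPM in the stele and at 1.92 and 3.21 in the root cap, and IAA31 was at 3.78 and 4.12 and at 0.832 and 1.12. IAA33, which acts with ARF10 and ARF16 in the root tip, was the opposite, at 8.37 and 11 CPM in the whole root, 2.31 and 2.13 in the root cap and 0.249 and 0.215 in the stele. All its fractions thus lay below the whole root. IAA34 reached a mean of 0.063 CPM at most.

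In the epidermis fraction 10 members were higher and 26 lower than in the whole root (48.9% of all entries passed, 23% higher and 25.9% lower). The median over the members was -0.883, against -0.117 over all entries. The families divided: 20 of 28 Aux/IAA genes were lower and 3 higher, 6 of 15 ARFs were lower and 3 higher, and all 4 receptors were higher. AFB1 (AT4G03190), a receptor needed for the rapid response of root growth to auxin, was at 193 and 204 CPM in the epidermis, 88.6 and 98.2 in the root cap, 89 and 69.2 in the stele, 74 and 68.4 in the whole root and 51 and 57.8 in the endodermis. The epidermis lay above every other library, by 1.48 ± 0.25 over the whole root (edgeR adjusted p = 1.7e-05). AFB2 was at 91.9 and 98.7 CPM there against 55.6 and 46.5 in the whole root, and AFB3 at 26.4 and 29.6 against 17 and 16.6, differences of 0.90 ± 0.17 and 0.74 ± 0.19. TIR1, the founding receptor, was at 41.7 and 40.7 CPM against 28.4 and 25.5 (0.61 ± 0.18), with edgeR adjusted p-values of 4.56e-05, 0.00164 and 0.00668. In the root cap TIR1 was at its lowest, with 26.3 and 22.8 CPM, and it passed under each other fraction. AFB1 and AFB3 overlap genes on the opposite strand, which this library kit cannot separate.

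The pair of activating ARFs that drive lateral root initiation was also high in the epidermis. ARF7 was at 23.9 and 21.1 CPM against 8.66 and 10.4 in the whole root (1.24 ± 0.27), and ARF19 at 15.1 and 18.6 against 7.41 and 9.15 (1.02 ± 0.27), with edgeR adjusted p-values of 0.000323 and 0.00227. ARF7 passed over each other fraction, while ARF19 was as high in the root cap, at 16.9 and 16.1 CPM. IAA14 (SOLITARY ROOT), their repressor in that process, was at 84.2 and 89.6 CPM in the root cap, 60.1 and 49.2 in the epidermis, 17.6 and 25.4 in the stele and 2.14 and 1.35 in the endodermis. ARF7 also overlaps a gene on the opposite strand. ARF6, which has a miR167 site, was level across the fractions, at 10.2 to 13.5 CPM, and none of its 6 pairs passed.

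In the endodermis fraction 3 members were higher than in the whole root, IAA10, TIR1 and AFB2, and 28 were lower (34.4% of all entries passed, 12.4% higher and 22% lower). The median over the members was -1.09 against -0.054. IAA10 was at 16.8 and 15.3 CPM, above the whole root by 1.14 ± 0.23 (edgeR adjusted p = 0.000202). IAA10 overlaps a gene on the opposite strand. TIR1 was at 38.5 and 49.7 CPM and AFB2 at 68.6 and 82.5, with differences of 0.71 ± 0.18 and 0.57 ± 0.16. Of the Aux/IAA genes 22 of 28 were lower, and the differences of IAA1, IAA33, IAA27 and IAA14 were -5.49, -4.84, -4.71 and -4.11. Against the stele, 24 members were lower in the endodermis and 4 higher (39.3% of all entries passed, 19.4% lower and 19.9% higher). Both comparisons carry the read note in the endodermis libraries alone. With the note as a term in the fit, 12 of the 313 member calls between the 5 groups at 0 h were lost and none changed sign.

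Levels of different genes are compared per kilobase of exon. On that scale AXR3 (IAA17), a repressor whose stabilised form blocks gravitropism, led the members in the whole root, the root cap and the epidermis, with group means of 382, 820 and 533 CPM per kb. In the endodermis IAA28 (169) and IAA16 (166) led, and in the stele IAA9 (406), IAA17 (388) and IAA28 (339). AFB1 was the most abundant receptor mRNA per kb in the whole root (34.6), root cap (45.3), epidermis (96.5) and stele (38.4), and AFB2 in the endodermis (31.5). TIR1 stayed between 10.5 and 18.8 CPM per kb in these 5 groups.

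A few of the repressors lie as neighbours on the chromosome, transcribed away from each other with 0 protein-coding genes between them. IAA14 and IAA1, 11038 bases apart, were both highest in the root cap and lowest in the endodermis. IAA2 and IAA7, 12878 bases apart, were both highest in the root cap, but IAA2 was lowest in the endodermis and IAA7 in the stele. IAA3 and IAA17, 6706 bases apart, differed, with IAA3 highest in the stele and IAA17 in the root cap, at 920 and 863 CPM.

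The non-hair epidermis of Col-0 is described first among the lines given BL. In pGL2, 5 Aux/IAA genes rose and ARF5 fell at 3 h, of 47 members tested, while 0.981% of all entries passed, 0.495% rising and 0.486% falling. At 8 h 6 Aux/IAA genes rose, and ARF5, ARF6 and TIR1 fell, while 3.87% of all entries passed, 1.84% rising and 2.03% falling. The median log2 change over the members was 0.08 and -0.0204, against 0 and -0.0297 over all entries. IAA19, IAA11 and IAA2 rose at both times, and ARF5 fell at both. Epidermis markers moved too: the median of the 5, each relative to its own pGL2 mean at 0 h, was 90.3 to 110% at 0 h. At 3 and 8 h this median was 156 to 180%, with 1 of 5, GL2, passing at 8 h. The part of these markers in the member changes was not tested.

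IAA19 (MSG2; AT3G15540, chr3:5264024-5265678), a repressor of growth movements that brassinosteroids are known to induce in seedlings, was at 4.71 and 5.57 CPM at 0 h, 29.9 and 24.4 at 3 h and 15.6 and 19.3 at 8 h. Both treated groups lay above the untreated libraries, and 3 h above 8 h. The change was 2.40 ± 0.26 at 3 h and 1.76 ± 0.25 at 8 h (edgeR adjusted p = 1.26e-06 and 9.47e-05). IAA11 was at 4.88 and 4.96 CPM at 0 h, 13.7 and 12.7 at 3 h and 10.8 and 12.1 at 8 h, without overlap with 0 h. Its changes were 1.42 ± 0.23 and 1.22 ± 0.23 (edgeR adjusted p = 0.000492 and 0.00212). IAA11 overlaps a gene on the opposite strand.

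IAA6 (SHY1), the closest paralogue of IAA19, had 3 and 0 reads at 0 h, 30 and 24 at 3 h, which is a ratio of 18.6 in CPM with an exact 95% interval of 6.02 to 92.8 that covers counting error only. The change passed at 3 h (edgeR adjusted p = 0.00904), and at 8 h the level was 0.328 and 0.199 CPM. IAA33 was at 1.58 and 1.15 CPM at 0 h, 4.63 and 4.01 at 3 h, and 1.48 and 1.2 at 8 h, so that the 3 h libraries stood apart and those of 8 h overlapped 0 h. Its change at 3 h was 1.65 ± 0.42 (edgeR adjusted p = 0.0487). IAA2 went from 52.9 and 55.9 CPM to 102 and 103 at 3 h and 107 and 111 at 8 h, changes of 0.91 ± 0.22 and 1.01 ± 0.22 (edgeR adjusted p = 0.0286 and 0.00709). At 8 h IAA9, IAA13 and IAA16 also rose, by 0.73, 0.72 and 0.66 (edgeR adjusted p = 0.0476, 0.0415 and 0.0281).

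ARF5 was at 3.09 and 4.63 CPM at 0 h, 1.52 and 2.03 at 3 h and 1.19 and 1.59 at 8 h. All treated libraries lay below both untreated ones, with changes of -1.12 ± 0.26 and -1.46 ± 0.27 (edgeR adjusted p = 0.0266 and 0.00197). At 8 h TIR1 went from 41.7 and 40.7 CPM to 28.4 and 24 (-0.65 ± 0.19) and ARF6 from 12.8 and 12.3 to 8.83 and 7.77 (-0.60 ± 0.16), with edgeR adjusted p-values of 0.0404 and 0.0328. AFB1, AFB2 and AFB3 did not pass at either time. The IAA19 and IAA11 calls held under every alternative at both times. The number of member calls at 3 h went from 6 to 2 when replicate 2 at 0 h or replicate 1 at 3 h was left out, and to 3 when replicate 2 at 3 h was. At 8 h it went from 9 to 3 when replicate 1 at 0 h or replicate 2 at 8 h was left out, and to 2 when replicate 2 at 0 h was. With the spread taken from these groups alone it was 4.

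**Figure D2:**
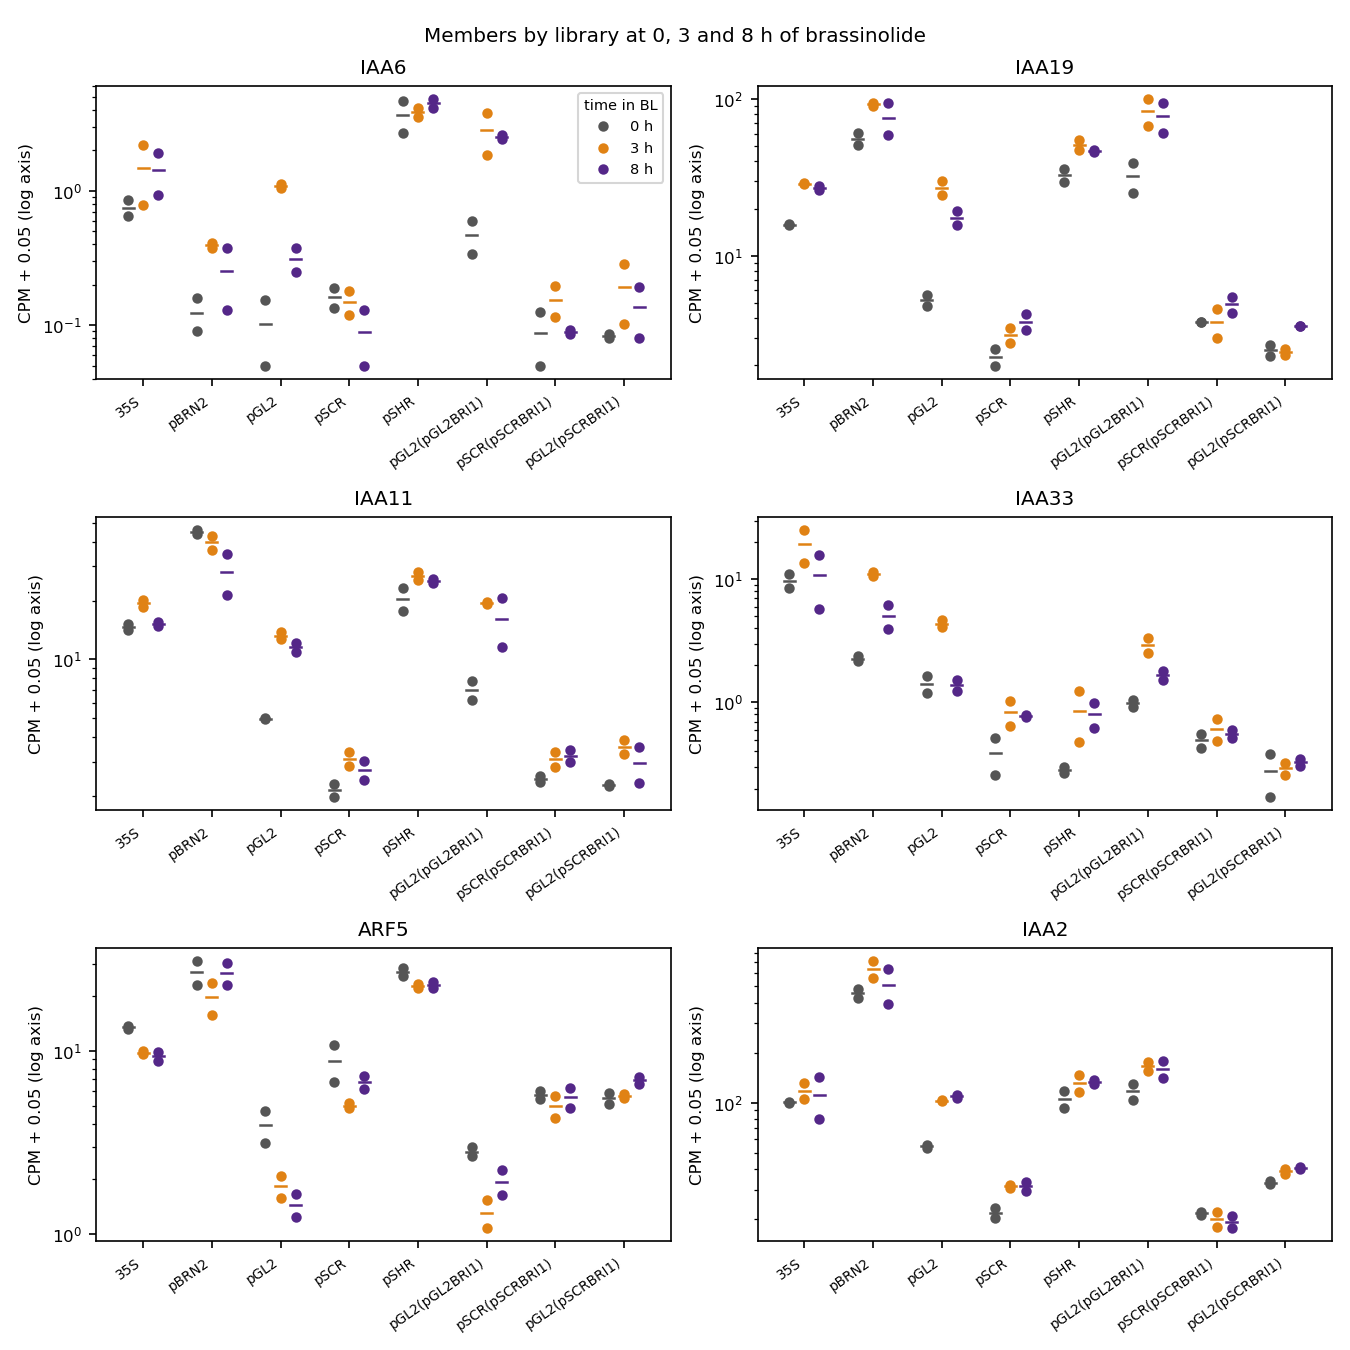
CPM (log axis, 0.05 added) of IAA6, IAA19, IAA11, IAA33, ARF5 and IAA2 in the 8 lines at 0, 3 and 8 h of BL. Points are libraries and bars are means of 2; in pGL2, IAA19 stands at 4.71 and 5.57 CPM before BL and at 24.4 and 29.9 CPM at 3 h, while pSCR stays under 5.

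Upstream sequence is shown for IAA19 and IAA6, paralogues that rose together, with IAA11 for contrast. The windows are the 300 bases before the RefSeq start of the gene (TAIR10.1), at chr3:5263701-5264000 (IAA19, plus strand), chr1:19673653-19673952 (IAA6, minus) and chr4:14141763-14142062 (IAA11, plus), each printed along the gene's own strand. Both strands were searched for the auxin response elements TGTCTC and TGTCGG, for CGTGNG, which covers the element bound by the brassinosteroid factor BZR1, for the G-box CACGTG, which reads the same on both strands, and for the E-box form CATGTG. Capitals mark all matches.
IAA19: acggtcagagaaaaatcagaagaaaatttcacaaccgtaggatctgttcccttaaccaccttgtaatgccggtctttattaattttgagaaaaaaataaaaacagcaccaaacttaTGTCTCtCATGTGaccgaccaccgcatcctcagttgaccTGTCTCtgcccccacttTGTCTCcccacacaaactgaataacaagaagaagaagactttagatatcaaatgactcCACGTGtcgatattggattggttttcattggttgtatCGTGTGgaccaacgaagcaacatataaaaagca
IAA6: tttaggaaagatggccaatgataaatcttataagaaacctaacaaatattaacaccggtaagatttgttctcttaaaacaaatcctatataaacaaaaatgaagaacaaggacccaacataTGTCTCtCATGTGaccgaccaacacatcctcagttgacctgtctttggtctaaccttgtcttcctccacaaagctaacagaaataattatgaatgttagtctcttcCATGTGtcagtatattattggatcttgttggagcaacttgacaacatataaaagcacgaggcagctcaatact
IAA11: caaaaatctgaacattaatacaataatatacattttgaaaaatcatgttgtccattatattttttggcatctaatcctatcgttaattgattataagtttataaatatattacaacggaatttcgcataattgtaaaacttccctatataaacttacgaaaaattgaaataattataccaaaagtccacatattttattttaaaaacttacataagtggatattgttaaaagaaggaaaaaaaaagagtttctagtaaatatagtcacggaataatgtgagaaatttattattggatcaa

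The IAA19 window held TGTCTC at 184, 145 and 128 bases before the start, CATGTG at 177, CACGTG at 70 and CGTGTG at 33. The IAA6 window held TGTCTC at 179 and CATGTG at 172 and 73 bases. None of these letters was in the IAA11 window, although IAA11 rose as well. The IAA19 and IAA6 windows share a stretch of 46 bases, of which 44 are identical, beginning 186 and 181 bases before the start (chr3:5263815-5263860, plus, and chr1:19673788-19673833, minus). The first 23 bases of it, which hold TGTCTC and CATGTG, were in 2 of 20332 windows, those of IAA19 and IAA6. This run was picked as the longest identical one of these 2 windows, so both hold it by construction. Other runs of that length were not counted, so the number is no measure of how particular the run is. The whole stretch is printed here with the identical bases in capitals.
IAA19 stretch: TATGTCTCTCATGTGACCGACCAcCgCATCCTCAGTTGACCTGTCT
IAA6 stretch: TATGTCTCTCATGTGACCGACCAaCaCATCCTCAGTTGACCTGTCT
Of all 20332 windows 12.8% held TGTCTC, 5.3% TGTCGG, 14.6% CGTGNG, 7.9% CACGTG and 13.2% CATGTG. Among the 47 members tested the number with each was 13, 8, 8, 4 and 11. A match is a description of the sequence, and binding was not measured.

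In the root cap fraction IAA33 and IAA13 rose at 3 h (0.915% of all entries passed, with 0.448% of all entries higher). IAA33 was at 2.31 and 2.13 CPM at 0 h, 10.6 and 11.4 at 3 h and 6.09 and 3.91 at 8 h. The 3 h libraries were the highest and none overlapped 0 h, with a change at 3 h of 2.30 ± 0.41 (edgeR adjusted p = 0.00269). IAA13 went from 16.2 and 13.5 CPM to 26.4 and 35.3 (1.05 ± 0.21, edgeR adjusted p = 0.00749). Replicate 2 at 3 h, the higher of these, held stele markers at 15.8% of their pSHR level and endodermis markers at 7.04% of their pSCR level, against 7.52 and 10.7% and 3.22 and 4.28% at 0 h, with root cap markers at 76% against 112 and 88%. IAA13 was at 258 and 242 CPM in the stele at 0 h. IAA19 was at 50.7 and 60.8 CPM at 0 h, 90.2 and 94.9 at 3 h and 93.9 and 58.6 at 8 h, and did not pass. Neither call held when replicate 2 at 0 h was left out, and IAA33 alone passed when replicate 2 at 3 h was. At 8 h no member passed by edgeR (1.12% of all entries did), while 13 had an unadjusted p under 0.05, and DESeq2 also passed 0. Without replicate 1 of 8 h 3 members passed.

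In the whole root no member passed by edgeR at 3 or 8 h (0.31 and 0.429% of all entries did), while 9 and 9 had an unadjusted p under 0.05 and DESeq2 passed 2 and 0. IAA19 was at 15.6 and 15.8 CPM at 0 h, 28.9 and 28.7 at 3 h and 27.8 and 26.3 at 8 h. The treated libraries lay above the untreated ones, but the change at 3 h, 0.87 ± 0.24, did not pass (edgeR adjusted p = 0.115). GH3.2, an auxin-conjugating enzyme and ARF target, rose at both times, by 1.55 and 1.47. Leaving out replicate 2 of 3 h or replicate 1 of 8 h passed 1 member each.

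In the endodermis no member passed at either time (0.0429 and 0.0667% of all entries did), with 7 and 5 at an unadjusted p under 0.05, and DESeq2 passed 0 and 1. IAA19 was at 1.93 and 2.47 CPM at 0 h, 2.73 and 3.39 at 3 h and 3.32 and 4.16 at 8 h there. Without replicate 1 of 0 h 1 member passed at 8 h. In the stele no member passed either (0.0191% of all entries at each time), with 7 and 6 at an unadjusted p under 0.05, and DESeq2 passed 1 and 0. Among these was IAA20, at 7.26 and 6.53 CPM at 0 h, 1.28 and 1.68 at 3 h and 3.38 and 2.6 at 8 h. These groups did not overlap, and the change at 3 h was -2.22 ± 0.52 with an edgeR adjusted p of 0.151. Its paralogue IAA30, also without the degron core, was at 9.33 and 10.4 CPM at 0 h and at 4.68 and 4.43 at 3 h (-1.12, edgeR adjusted p = 0.83).

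**Figure D3:**
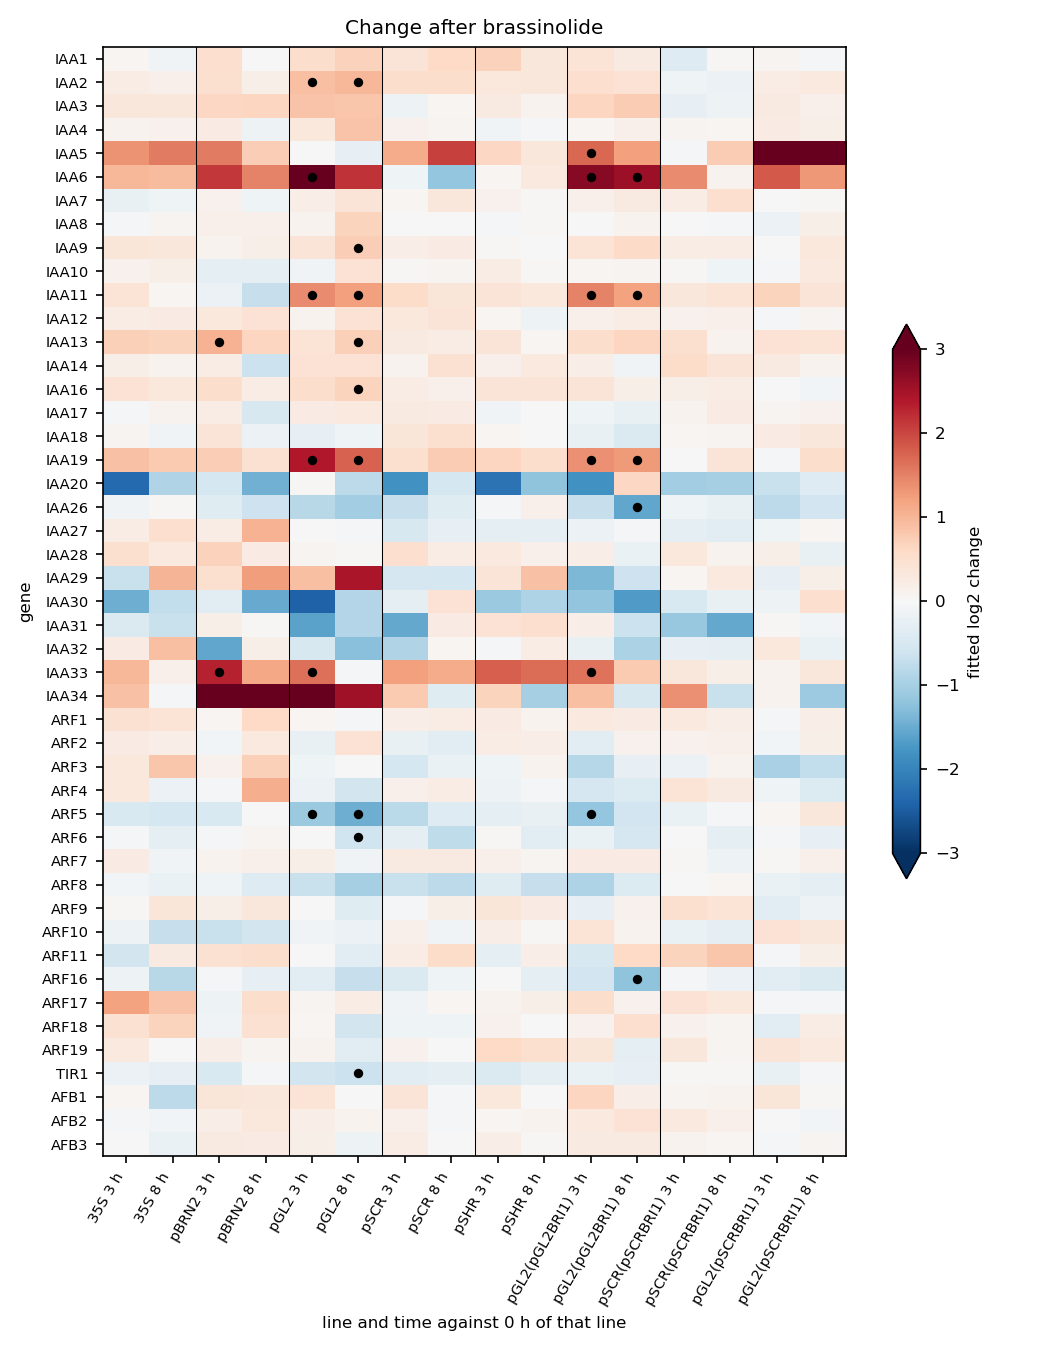
Fitted log2 change of the 47 tested members (rows) after 3 and 8 h of BL in the 8 lines (16 columns), with dots where the adjusted p was under 0.05. The 28 dots lie in the pGL2, pGL2(pGL2BRI1) and pBRN2 columns, and the strongest colours of IAA5, IAA6 and IAA34 rest on groups near 0 counts.

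In pGL2(pGL2BRI1), where BRI1 was returned from the pGL2 promoter, 5 Aux/IAA genes rose and ARF5 fell at 3 h (2.72% of all entries passed, 1.61% rising and 1.11% falling). At 8 h 3 Aux/IAA genes rose, and IAA26 and ARF16 fell (1.39% passed, 0.743% rising and 0.648% falling). IAA19 was at 39 and 25.2 CPM at 0 h, 67.6 and 99.7 at 3 h and 95.1 and 60.6 at 8 h, without overlap, and changed by 1.38 ± 0.24 and 1.28 ± 0.24 (edgeR adjusted p = 0.00096 and 0.00275). IAA11 went from 7.68 and 6.14 CPM to 19.2 and 19.7 at 3 h and 20.5 and 11.6 at 8 h, changes of 1.49 ± 0.23 and 1.22 ± 0.23 (edgeR adjusted p = 0.000209 and 0.00273). IAA5, the third paralogue of the IAA19 group, went from 3.48 and 1.61 CPM to 8.31 and 8.34 at 3 h (1.72 ± 0.39, edgeR adjusted p = 0.0128). In pGL2 the same gene was at 0.894 and 0.984 CPM at 0 h and at 0.867 and 0.993 at 3 h. IAA6 had 12 and 7 reads at 0 h and 38 and 98 at 3 h, a ratio of 6.98 in CPM (exact 95% interval 4.3 to 12 for counting error), with a change of 2.73 ± 0.62 at 3 h (edgeR adjusted p = 0.0118).

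ARF5 in this line went from 2.61 and 2.93 CPM to 1.47 and 1.03 at 3 h (-1.16 ± 0.28, edgeR adjusted p = 0.021), and IAA33 from 1.01 and 0.865 to 2.47 and 3.28 (1.62 ± 0.45, edgeR adjusted p = 0.046). At 8 h ARF16 went from 32.6 and 26.7 CPM to 11.2 and 14.6 (-1.20 ± 0.27, edgeR adjusted p = 0.0146), and IAA26 fell by 1.55 on the log2 scale. In pGL2 ARF16 was at 40.8 and 40.1 CPM at 0 h and at 27.3 and 23.1 at 8 h, which did not pass. At 3 h the count of 6 went to 1 when replicate 2 at 0 h was left out and to 2 when replicate 2 at 3 h was. At 8 h the count of 5 went to 2 and 1 when replicate 1 or 2 at 0 h was left out, and to 0 when replicate 1 at 8 h was. Without the 3 libraries with raised endodermis markers, which leaves 1 library a group assumed to vary like the other groups, 2 members passed at 3 h.

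In the libraries labelled pGL2(pSCRBRI1) and in pSCR(pSCRBRI1) no member passed by edgeR or DESeq2 at either time. The share of all entries that passed was 0.224 and 0.11% in the former and 0% at both times in the latter. At an unadjusted p under 0.05 there were 5 and 2 members in the former and 2 and 1 in the latter. IAA19 in pSCR(pSCRBRI1) was at 3.7 and 3.71 CPM at 0 h, 4.52 and 2.95 at 3 h and 5.44 and 4.25 at 8 h, with overlap at 3 h.

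The other auxin genes give the setting of the epidermal response. In pGL2 3 of 6 auxin synthesis genes rose at both times, the flavin monooxygenase genes YUC3, YUC8 and YUC9, with changes of 1.95, 2.15 and 1.46 at 3 h and 1.68, 2.47 and 1.23 at 8 h. Of 16 ARF target genes tested outside the module 0 passed at 3 h, and at 8 h 2 rose, GH3.2 (1.32) and GH3.6 (1.92), which conjugate auxin. Of 8 transport genes PIN4, an auxin efflux carrier, fell at both times (-1.34 and -1.24). Its fall was not particular to pGL2: PIN4 also fell at 3 and 8 h in pSCR (-1.68 and -1.81) and in pGL2(pGL2BRI1) (-2.22 and -1.30). None of the 5 TOPLESS corepressors and none of the 9 genes of the ubiquitin ligase and its RUB modification passed at either time.

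The response itself was compared between lines in 8 tests. The BL response of IAA11 at 8 h differed between the epidermis and the root cap by 1.90 ± 0.32 (edgeR adjusted p = 0.00667, where 0.105% of all entries passed, with 0.0762% higher). In the epidermis IAA11 rose from 4.88 and 4.96 to 10.8 and 12.1 CPM, while in the root cap it was at 45.8 and 43.7 CPM at 0 h and at 34.5 and 21.3 at 8 h (-0.68 ± 0.22, not passed). The library at 21.3 CPM, replicate 2, stood apart from the other root cap libraries in its TMM factor, 1.05 against 0.757 to 0.829. It held root cap markers at 67.9% of the pBRN2 level at 0 h, stele markers at 18.7% of the pSHR level and epidermis markers at 13.5% of the pGL2 level. Without replicate 2 of 8 h in the root cap the difference was 1.60 (edgeR adjusted p = 0.0839), and without replicate 2 of 8 h in the epidermis 1.82 (edgeR adjusted p = 0.0608). Without replicate 1 of 8 h in the root cap 2 members passed. With the spread taken from these groups alone it was 1.90 with an edgeR adjusted p of 0.37. IAA19 rose more in the epidermis than in the endodermis at 3 h by 1.92 ± 0.37, and more than in the root cap by 1.67, but neither difference passed (edgeR adjusted p = 0.0799 and 0.109).

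No member differed in the other 7 tests by edgeR. In those of pGL2 against pSCR at 3 and 8 h 0.00953 and 0.0572% of all entries passed, where 4 and 8 members reached an unadjusted p under 0.05 and DESeq2 passed 1 and 0. In that of pGL2 against pBRN2 at 3 h 0% passed, where 6 members reached an unadjusted p under 0.05 and DESeq2 passed 2. For pGL2(pGL2BRI1) against pGL2 the shares were 0.0286 and 0.00953%, where 3 and 2 members reached an unadjusted p under 0.05 and DESeq2 passed 0 at both times. For pSCR(pSCRBRI1) against pSCR they were 0% at both times, where 1 and 4 members reached an unadjusted p under 0.05 and DESeq2 passed 0. A smaller BL response of IAA19 in pGL2(pGL2BRI1) than in pGL2 was therefore not shown.

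Restoring BRI1 to the epidermis of bri1-116 went with a different repressor makeup before BL. Against pGL2 in Col-0, 13 Aux/IAA genes were higher in pGL2(pGL2BRI1) and the receptors TIR1 and AFB3 were lower (11.4% of all entries passed, 6.64% higher and 4.74% lower), with no ARF passing. The median over the members was 0.346, against 0.0104 over all entries. The comparison joins the mutant background, the transgene and its position in the genome, which cannot be told apart. Replicate 2 of the BRI1 line also held endodermis markers at 25.9% of the pSCR level. Without the 3 libraries of this line that had raised endodermis markers, 9 members were higher and 0 lower, and IAA8, IAA10, IAA12, IAA16, TIR1 and AFB3 did not pass. Of the 13 genes, IAA3, IAA4, IAA8, IAA10 and IAA12 had a higher mean level in pSCR than in pGL2, and the other 8 a lower one.

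IAA19 was at 39 and 25.2 CPM in pGL2(pGL2BRI1) against 4.71 and 5.57 in pGL2, a difference of 2.64 ± 0.26 (edgeR adjusted p = 9.81e-08). The untreated BRI1 line thus stood where pGL2 stood after 3 h of BL, at 29.9 and 24.4 CPM. IAA1 was at 102 and 50.8 CPM against 17.5 and 20.9 (2.00 ± 0.39, edgeR adjusted p = 0.00141), and IAA3 at 30.4 and 18.7 against 7.05 and 6.8 (1.82 ± 0.30, edgeR adjusted p = 0.000183). IAA28, a repressor of lateral root founder cell specification, was at 396 and 359 CPM against 186 and 158 (1.13 ± 0.18, edgeR adjusted p = 0.000113). These groups did not overlap.

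The others of the 13 were IAA2, IAA4, IAA5, IAA8, IAA10, IAA12, IAA14, IAA16 and IAA17, with differences of 0.56 to 1.43. IAA11, a BL-responsive gene in both lines, was not among them, at 7.68 and 6.14 CPM against 4.88 and 4.96. TIR1 was at 26.2 and 29.5 CPM against 41.7 and 40.7 (-0.57 ± 0.18) and AFB3 at 19 and 16.2 against 26.4 and 29.6 (-0.67 ± 0.19), with edgeR adjusted p-values of 0.0437 and 0.0192. AFB1 and AFB2 were lower in both libraries but did not pass (edgeR adjusted p = 0.0687 and 0.0933). Lower levels were not particular to the receptors. In this comparison 3 of 5 TOPLESS corepressors and 3 of 9 genes of the ubiquitin ligase and its RUB modification were also lower. Of 6 auxin synthesis genes 5 were higher. The calls of IAA1, IAA2, IAA3, IAA4, IAA19 and IAA28 held under all 11 alternatives. The count of 15 went to 6 without replicate 2 of pGL2 and to 9 without replicate 2 of the BRI1 line, and with the spread taken from these groups alone it was 6.

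**Figure D4:**
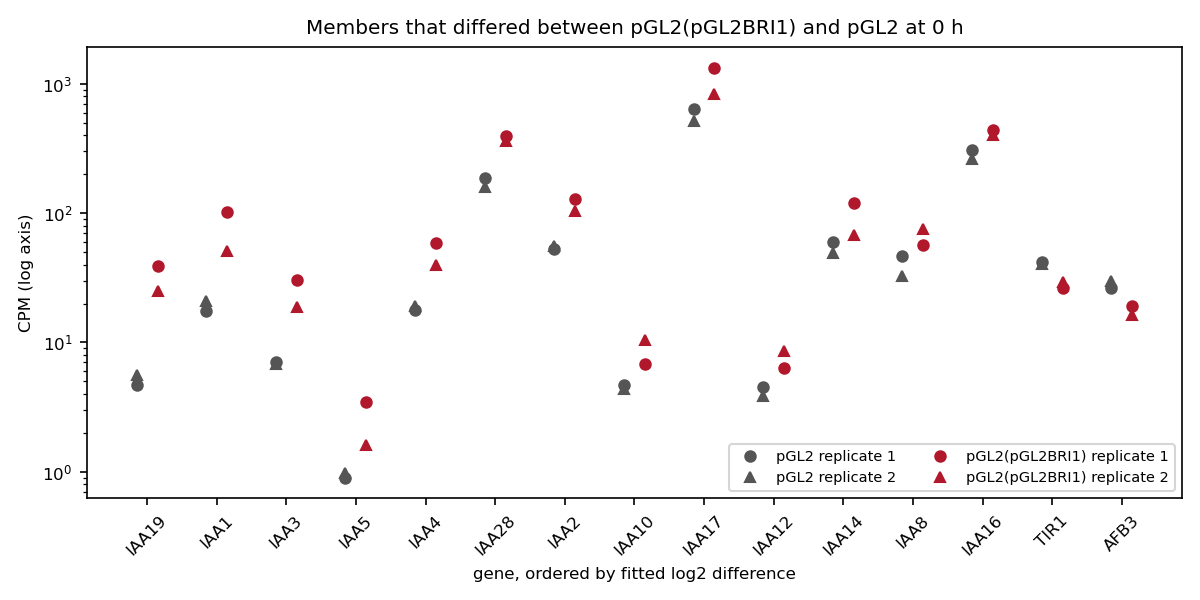
CPM (log axis) at 0 h of the 15 members that passed between pGL2(pGL2BRI1) and pGL2, with a point for each library. The BRI1 line is above pGL2 in 13 Aux/IAA genes, with the widest gap in IAA19, and below it in TIR1 and AFB3.

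With BRI1 in the endodermis, 2 members differed between pSCR(pSCRBRI1) and pSCR at 0 h (2.99% of all entries passed, 2.52% higher and 0.462% lower). IAA17 was at 213 and 177 CPM against 86.4 and 99.7, higher by 1.07 ± 0.24 (edgeR adjusted p = 0.00976). ARF2, a repressor of transcription, was at 20.6 and 27.6 CPM against 36.5 and 45.4, lower by 0.77 on the log2 scale (edgeR adjusted p = 0.0112). The libraries did not overlap in either gene. Without replicate 1 of pSCR 1 member passed, and none without replicate 2 of pSCR or without replicate 1 of the BRI1 line. In the libraries labelled pGL2(pSCRBRI1) against pSCR(pSCRBRI1), 2 members were lower (3.68% of all entries passed, with 2.87% lower). IAA17 was at 86.5 and 96.4 CPM, as in pSCR, and differed by -1.09 ± 0.24 (edgeR adjusted p = 0.00556). AFB1 was at 35.3 and 38.9 CPM against 80.1 and 59.5 (-0.91 ± 0.25, edgeR adjusted p = 0.0311). Without replicate 1 of either group no member passed, and without replicate 2 of the former 1 did.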

How the data were processed

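Ribosome-bound mRNA was sequenced from TruSeq RNA v2 libraries, a kit that does not mark strand, as 50 bp single-end reads. The deposited table holds raw read counts per TAIR10 gene for 48 libraries; per the submitters' processing notes, the authors used FastQC 0.10.1, TopHat2 2.0.9 and HTSeq 0.5.3p3. Reads that paralogues share may be split or lost, which was not tested. Of the 48 members 7 overlap a gene on the opposite strand: IAA3, IAA10, IAA11, IAA32, ARF7, AFB1 and AFB3.

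Counts were scaled by TMM and filtered with filterByExpr, which kept 20995 of 33715 entries, and at least 99.98% of the counts of each library. All 24 groups were fitted together with edgeR 4.0.16 in R 4.3.3 (robust glmQLFit, glmQLFTest, common dispersion 0.0485). The 37 comparisons were each adjusted by BH over all tested entries, and the steps were tested on simulated counts. DESeq2 1.42.0 was an alternative. The groups and replicate numbers come from the labels. Other alternatives were RLE scaling, no filter, a replicate block, the read note as a term or as strata, the compared groups alone, leaving out each library, which kept the dispersion trend of all libraries, and leaving out the 3 pGL2(pGL2BRI1) libraries without the note. Members, marker lists and other gene lists were chosen with earlier results of these data known. Every member could be named. Not every member past the threshold is described, and the order does not follow the size of the change. From the other auxin gene lists, counts are given for the BL response of pGL2 and for pGL2(pGL2BRI1) against pGL2 at 0 h. Single genes are named for some lines, and the remaining comparisons of these lists are not described.

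Sequences come from the RefSeq genome and annotation (TAIR10.1). The genome shares coordinates with the table: 99.6% of 1171 coding entries checked there began and ended with a start and a stop codon. Gene bounds often differ, as 46.1% of 26815 protein-coding entries share a start or an end with RefSeq. Exon lengths for CPM per kilobase also come from RefSeq. Each group has 2 libraries, and IAA5, IAA6, IAA20, IAA29, IAA30 and IAA34 had 0 reads in at least 1 library.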

Additional observations from a re-analysis of the deposited data

Results flagged for a closer look

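The BL response of IAA11 at 8 h differed between 2 tissues in a test of the difference itself, the contrast of the pGL2 and the pBRN2 response in the edgeR fit. The difference was 1.90 ± 0.316 on the log2 scale (edgeR adjusted p = 0.00667). The IAA11 libraries of the epidermis moved up from 0 h and those of the root cap moved down. Replicate 2 of the root cap at 8 h, with raised stele and epidermis markers, was the lowest, and without it the difference was 1.60 (edgeR adjusted p = 0.0839).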

How the results depend on the processing

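No member call changed sign under any alternative. The 10 comparisons between tissues at 0 h kept their counts within 1.5 times, and 246 of their 313 member calls passed throughout. After BL, a fit of the compared groups alone gave 0 calls in pBRN2 at 3 h, 4 in pGL2 at 8 h, 2 and 1 in pSHR at 3 and 8 h, and 0 and 0 in pGL2(pGL2BRI1). At 0 h it gave 6 in pGL2(pGL2BRI1) against pGL2, 0 in pSCR(pSCRBRI1) against pSCR, 4 in the libraries labelled pGL2(pSCRBRI1) against pSCR(pSCRBRI1), and 0 in the difference of pGL2 and pBRN2 at 8 h. Such fits estimate the spread from fewer samples. DESeq2 gave 2 in 35S at 3 h, 4 in pBRN2 at 3 h, 1 in pSCR at 8 h, 1 in pSHR at 3 h, and 1 and 2 in the differences of pGL2 from pSCR and pBRN2 at 3 h. The read note as a term gave 4 in pBRN2 at 3 h, 4 in pSCR(pSCRBRI1) against pSCR, and 1 and 1 in those differences. Without the filter 5 passed in pGL2 at 8 h. Without the 3 pGL2(pGL2BRI1) libraries that lack the note 2 passed at 3 h and 9 against pGL2 at 0 h. Beyond what these constructions show, the cause was not tested. Within the note's strata every member called kept its sign, where a stratum held both groups. Only the comparisons within and between pGL2 and pGL2(pGL2BRI1) had 2 strata. In those among 35S, pBRN2 and pSHR no library has the note, so the stratum is the whole comparison and no separate check. In pSCR against 35S, pBRN2 or pSHR there were 0 strata.

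Leaving out each library in turn gave 2 to 4 calls in pGL2 at 3 h and 2 to 10 at 8 h, 0 to 3 in pBRN2 at both times, 1 to 4 and 0 to 7 in pGL2(pGL2BRI1), and 0 to 1 in 35S at both times and in pSCR at 8 h. It gave 6 to 11 in pGL2(pGL2BRI1) against pGL2, 0 to 3 in pSCR(pSCRBRI1) against pSCR, 0 to 2 in the libraries labelled pGL2(pSCRBRI1) against pSCR(pSCRBRI1), and 0 to 2 in the difference of pGL2 and pBRN2 at 8 h. Of 112 such refits of the 28 calls after BL 62 lost the call.

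The correlation of same-numbered deviations had a median of 0.001 over 276 pairs of groups (-0.697 to 0.629), with 64 pairs over 0.1. The replicate numbers thus showed no pairing common to all groups. A median cannot exclude deviations shared by some of them. With the number as a replicate block, 3 of 28 calls after BL, 1 of 19 between BRI1 lines, 2 of 313 between tissues and 0 of 1 between responses were lost. RLE scaling moved the median of all genes by 0.102 in pBRN2 against 35S and by less elsewhere.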
